A study of Sus scrofa with 23 samples.

Results

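The genes described here are 9 genes of organic osmolyte and urea handling, chosen by name from the 26687 genes of the annotation: SLC6A6, SLC6A12, SLC6A13, SLC5A3, AKR1B1, SLC14A1, SLC14A2, NFAT5 and MIOX. RNA of the kidney cortex was sequenced in 23 newborn pigs, of which 11 were labelled CFTR-/- (CF), 6 CFTR+/- (HET) and 6 wild type (WT), with 1 library per pig. HET and WT together form the non-CF group of 12 libraries. All piglets came from matings of CFTR+/- pigs and were studied soon after birth. The labels name no treatment and give neither the sex nor the litter of a pig. The paper describes isoflurane anesthesia and intravenous saline for its animal experiments, and does not say whether the animals sequenced here had them. Cortex was dissected by hand and sequenced in bulk, so fewer cells of a type and less RNA per cell cannot be told apart.

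CFTR, the targeted gene, went against the labels. It was lowest in the libraries labelled WT, at 1.27 to 3.67 CPM (counts scaled to library size), against 9.41 to 17.5 CPM in HET and 12.5 to 23.5 CPM in CF. Every direction below is therefore one between libraries labelled CF, HET and WT. Libraries held 32901281 to 52952273 estimated counts, so that 3 counts correspond to 0.0567 to 0.0912 CPM. Pigs 1 to 6 and 12 to 18 (6 CF, 3 HET, 4 WT) are called the earlier pig numbers, and pigs 7 to 11 and 19 to 23 (5 CF, 3 HET, 2 WT) the later ones. The labels name no batch, but these sets differed in several of the 9 genes, and values within each set are given where a result depends on them.

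Cells of the kidney medulla live in a concentrated fluid and hold their volume by filling up with small organic solutes in place of salt. SLC6A6 carries taurine, SLC6A12 carries betaine, SLC5A3 carries myo-inositol, and AKR1B1 (aldose reductase) makes sorbitol from glucose. NFAT5, also called TonEBP, is the transcription factor that raises these genes when tonicity rises, by binding tonicity-responsive enhancers (TonE). SLC14A1 (UT-B, vasa recta and red cells) and SLC14A2 (UT-A, inner medullary collecting duct and thin limbs) let urea pass. SLC6A13 carries GABA and taurine, and MIOX opens the ring of myo-inositol in the proximal tubule, the main segment of the cortex.

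The genes lie on chromosomes 1, 5, 6, 13 and 18 of Sscrofa11.1. SLC6A12 (chr5:67550285-67573858) and SLC6A13 (chr5:67574149-67617513) are neighbours on the minus strand, 290 bases apart. SLC14A2 (chr1:94838955-95322748) and SLC14A1 (chr1:95354848-95381492) are neighbours on the plus strand, 32099 bases apart. AKR1B1 (chr18:14593516-14752316, plus) shares its chromosome with CFTR, which starts 13875400 bases farther on. SLC5A3 (chr13:197688632-197723323, plus) lies inside the span of MRPS6 on the same strand, and 158 of its 11803 exonic bases (1.34%) are also exonic in MRPS6, so reads there could have been given to either gene. The others are SLC6A6 (chr13:70094073-70173581, minus), NFAT5 (chr6:17313511-17434951, minus) and MIOX (chr5:249312-251547, minus).

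Upstream sequence was read from the reference genome to show where the letters that NFAT5 is known to bind occur in its candidate targets. The core TGGAAA was searched on both strands in the 1000 bases before the start of each gene's leading transcript, that is the transcript with the largest share of its TPM. The core was found in 8 of the 9 genes, MIOX being the exception, against 61.9% of 19528 promoters of the same length. Those promoters were cut before the 5′-most annotated start of each gene, so the windows are not alike for every member. The leading transcripts of SLC6A6 (from chr13:70154286), AKR1B1 (chr18:14734092) and NFAT5 (chr6:17372662) start well inside the annotated gene. Those of SLC14A1 and MIOX start slightly inside it. The SLC6A6 matches therefore lie inside the gene. The longer TonE consensus, which contains the core, was found in 4 of 9 genes (SLC6A6, SLC6A12, SLC5A3 and SLC14A2) against 21% of promoters. These are matches of letters and say nothing about binding. The 5 consensus matches are printed 5′ to 3′ in the direction of the motif, with the consensus in capitals and up to 9 bases on either side.
SLC6A6, 384 bases before the start (chr13:70154660-70154670, plus): cacctggccTGGAAACCTCCacctaaaca
SLC6A12, 167 bases before (chr5:67574015-67574025, minus): gctgctcgaTGGAAAACTACaggctgaga
SLC5A3, 328 bases before (chr13:197688304-197688314, plus): cggaaggcaTGGAAAGTTCCagctggttc
SLC14A2, 994 bases before (chr1:94837961-94837971, plus): ttaaccTGGAAATATTCtaaatattt
SLC14A2, 232 bases before (chr1:94838723-94838733, minus): ttcccaggaTGGAAAACTCCatttgagaa

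Within 250 bases of the start, where 4.65% of promoters hold the consensus, it was found in SLC6A12 and SLC14A2. Their 250 bases are shown on the strand of the gene because they are the members with a match nearest the start, with the core in capitals (TTTCCA where it reads on the other strand).
SLC6A12 (chr5:67573859-67574108, minus): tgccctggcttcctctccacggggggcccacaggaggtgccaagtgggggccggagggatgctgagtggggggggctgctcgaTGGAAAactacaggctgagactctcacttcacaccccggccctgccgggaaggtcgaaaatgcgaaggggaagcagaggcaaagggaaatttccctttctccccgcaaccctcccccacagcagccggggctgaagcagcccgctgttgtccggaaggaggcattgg
SLC14A2 (chr1:94838705-94838954, plus): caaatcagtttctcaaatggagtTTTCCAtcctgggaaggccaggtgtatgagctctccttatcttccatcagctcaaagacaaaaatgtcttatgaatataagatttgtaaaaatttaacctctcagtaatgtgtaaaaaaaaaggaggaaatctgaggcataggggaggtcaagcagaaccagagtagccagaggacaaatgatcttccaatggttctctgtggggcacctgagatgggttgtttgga
The SLC6A12 window is rich in G and C (64.4%) and the SLC14A2 window is not (41.2%).

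Levels between genes were compared in TPM, the unit of transcript abundance that corrects for length. MIOX was the most abundant of the 9 genes, at 233 TPM ± 110 (SD, n = 23), and was above the next gene in 23 of 23 libraries. AKR1B1 followed at 71.3 TPM ± 23.1 and NFAT5 at 34.2 TPM ± 5.71, each again above the next gene in 23 of 23 libraries. The catabolic enzyme of the proximal tubule thus stood above the sorbitol-making enzyme and the tonicity factor in every pig. SLC6A6 (15.7 TPM ± 1.86) and SLC5A3 (15.04 TPM ± 4.01) did not differ beyond their spread, with SLC6A6 higher in 14 of 23 libraries. The remaining transporters were scarce: SLC14A1 at 1.28 TPM ± 0.559, SLC6A13 at 0.840 TPM ± 0.213, SLC6A12 at 0.448 TPM ± 0.381 and SLC14A2 at 0.157 TPM ± 0.0996. Among these the order held in 19, 20 and 20 of 23 libraries for successive neighbours.

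The scarce genes rested on few reads. SLC14A2 had 14 to 118 estimated counts per library and SLC6A12 had 11 to 185. Both were above 3 counts in every library, but their values carry the largest counting error of the set. SLC6A12 reads were spread over 8 annotated transcripts of which the leading one held 38.0% of the TPM, and this split was unstable between libraries, so the gene is described by its sum. SLC6A13, SLC5A3 and SLC14A2 have 1 annotated transcript each. AKR1B1 was carried by NM_001001539.2 (72.3% of its TPM), with group means of 71.7% in CF, 72.3% in HET and 71.9% in WT. MIOX was divided between XM_005653181.3 (58.8%) and NM_214102.2 (41.2%), and the share of the latter was 39.9% ± 8.10 (SD, n = 11) in CF, 43.0% ± 1.35 (SD, n = 6) in HET and 36.5% ± 9.99 (SD, n = 6) in WT. NFAT5 was spread over 15 transcripts, none above 20.1%.

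The tissue label was checked with markers of nephron segments. The 13 proximal tubule markers summed to 7754 to 15413 CPM over the 23 libraries, with the median at 11179 CPM in CF, 10922 CPM in HET and 9989 CPM in WT, and none was at 0 in any library. Markers of the thin limb and medulla summed to 444 to 725 CPM and those of the collecting duct principal cell to 229 to 431 CPM. The endothelium and vasa recta list summed to 768 to 1398 CPM. Of the 62 marker genes tested in each of the 4 comparisons, edgeR called 0. At an unadjusted p under 0.05 in edgeR were 12 for CF against non-CF, 12 for CF against WT, 8 for HET against WT and 12 for CF against HET. Over all genes these shares were 13.7%, 14%, 8% and 9.83%. Of the markers, limma-voom called 0 and DESeq2 called 1 to 6. The 6 were for CF against non-CF, where DESeq2 called 2.33% of all genes, and 3 of them (CALB1, SLC12A1 and SLC12A3, named after their values were seen) were of the thick ascending limb and distal tubule list, each lower in 11 of 11 CF libraries than the non-CF median. Of the 10 genes of that list 8 were lower and 2 higher in CF than in non-CF (UMOD at 0.28 and PTGER3 at 0.15, edgeR adjusted p = 0.544 and 0.504), and against WT 6 were lower and 4 higher with a median of -0.04, UMOD at 0.52 (edgeR adjusted p = 0.291). That list summed to a median of 1677 CPM in CF, 2048 CPM in HET and 2085 CPM in WT. Its part in the results below was not tested.

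The genotype comparisons asked whether these genes differed between the labels. Across all genes, edgeR's quasi-likelihood test called 0.349% of 20921 genes for CF against non-CF, 0.336% of 21434 genes for CF against WT, 0.00467% for HET against WT and 0% for CF against HET. All 9 members passed the expression filter, and 0 of 9 were called in any of the 4 comparisons. MIOX alone had an unadjusted p under 0.05, for CF against non-CF and for CF against WT, where 13.7% and 14% of all genes did (8% for HET against WT and 9.83% for CF against HET). DESeq2 and limma-voom in the 4 comparisons, and an exact Mann-Whitney U test of CF against non-CF, also called 0 of 9. Over all genes, DESeq2 called 2.33% for CF against non-CF, 2.67% for CF against WT, 0.149% for HET against WT and 0.261% for CF against HET, limma-voom called 0.22%, 0.303%, 0.00467% and 0%, and the Mann-Whitney U test called 47 of 21937 genes (0.214%). The median log2 fold change of the members was -0.01 for CF against non-CF and -0.09 for CF against WT, beside a median of 0.00 over all genes tested in each.

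**Figure D1:**
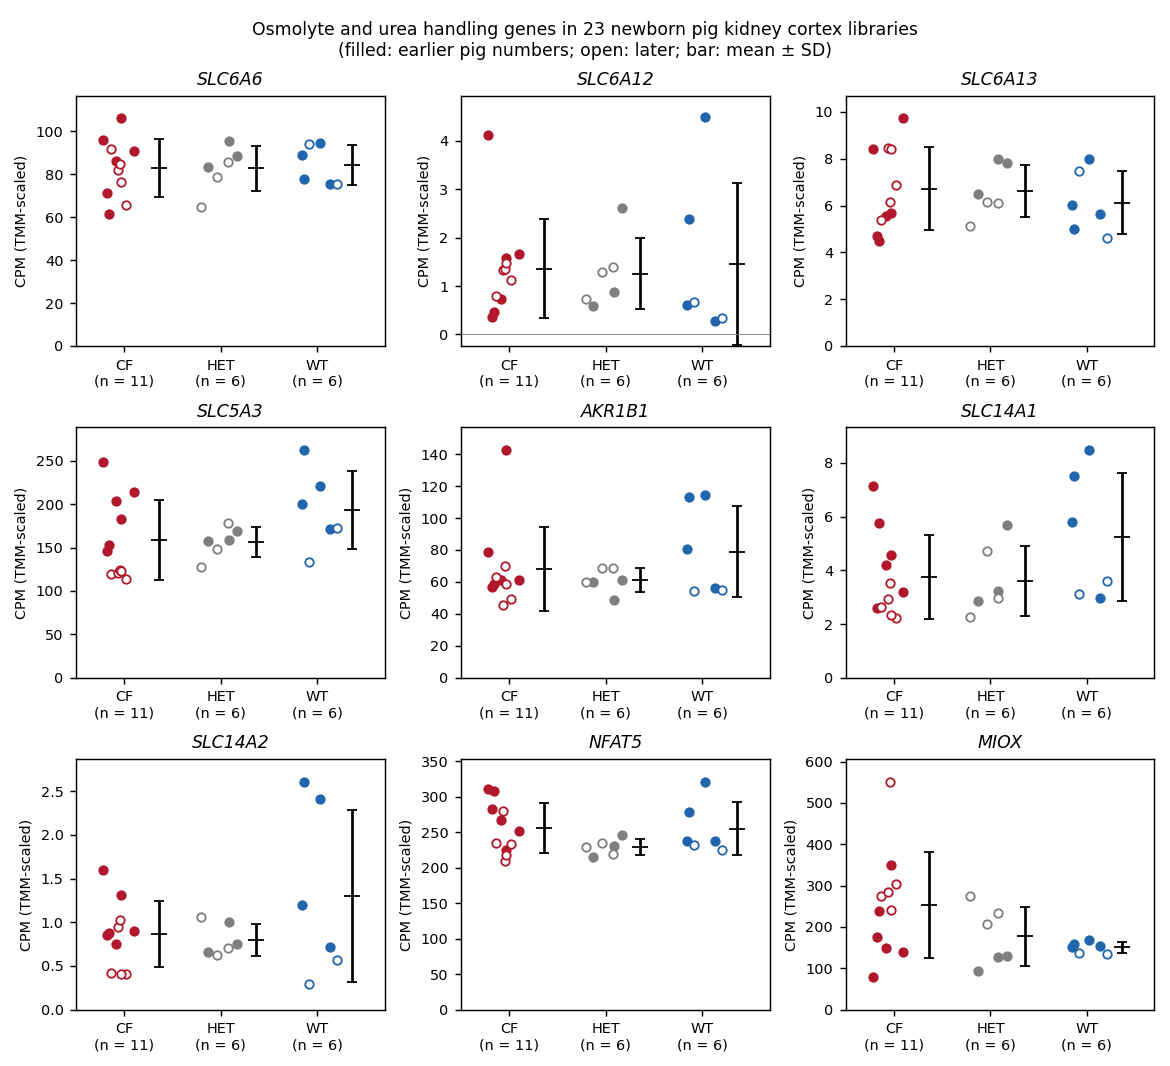
CPM of each of the 9 genes (y axis, linear, 1 panel per gene) in the 23 libraries by label (x axis), with filled points for earlier and open points for later pig numbers and bars for the mean ± SD. Labels overlap in every panel, MIOX reaches 551 CPM in the CF group, and pigs 12 and 17 of the WT group are at the top of SLC14A1 and SLC14A2.

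Of the solute transporters, SLC6A6 was the most even. It ranged from 61.7 to 106 CPM in CF (median 85.0), 64.96 to 95.7 CPM in HET (median 84.6) and 75.3 to 94.4 CPM in WT (median 83.4). The ranges lay almost on top of each other. The log2 fold change for CF against non-CF was -0.01 (SE 0.0820, 95% interval -0.18 to 0.16, edgeR adjusted p = 0.977).

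SLC5A3, the myo-inositol transporter, ranged from 113 to 248 CPM in CF (median 146), 128 to 178 CPM in HET (median 158) and 133 to 262 CPM in WT (median 186). The highest libraries were WT pig 17 (262 CPM) and CF pig 3 (248 CPM), and the groups overlapped. The log2 fold change was -0.14 for CF against non-CF (SE 0.137, edgeR adjusted p = 0.721) and -0.28 for CF against WT (SE 0.159, edgeR adjusted p = 0.448). Without WT pig 17 these were -0.07 and -0.18, and without CF pig 3 the former was -0.23. Within the later pig numbers the 5 CF libraries (113 to 124 CPM) all lay below the 5 non-CF libraries (128 to 178 CPM), which was so, in either direction, for 4.64% of all genes. The log2 fold change there was -0.33 (edgeR adjusted p = 0.0912), against 0.0042 within the earlier pig numbers, and the difference between the sets was not past the threshold (edgeR adjusted p = 0.572). MRPS6, which shares a small part of its exons with SLC5A3, had a log2 fold change of -0.26 for CF against non-CF (edgeR adjusted p = 0.285).

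SLC6A12, the betaine transporter, was the most variable member. It ranged from 0.362 to 4.12 CPM in CF (median 1.33), 0.594 to 2.60 CPM in HET (median 1.08) and 0.272 to 4.48 CPM in WT (median 0.638). WT pig 12 and CF pig 3 stood at the top, well apart from the rest of their groups. The log2 fold change for CF against non-CF was 0.01 with a wide 95% interval of -0.84 to 0.87 (edgeR adjusted p = 0.995), so that a change of up to about this size was not detectable. Its neighbour SLC6A13 was steadier, at 4.50 to 9.72 CPM in CF (median 6.17), 5.14 to 8.002 CPM in HET (median 6.34) and 4.62 to 8.001 CPM in WT (median 5.82). Its log2 fold change was 0.08 (SE 0.132, edgeR adjusted p = 0.864), and 0.011 without CF pig 2.

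AKR1B1, which makes sorbitol, ranged from 45.3 to 142 CPM in CF (median 61.4), 48.6 to 68.8 CPM in HET (median 60.7) and 54.5 to 115 CPM in WT (median 68.5). CF pig 1 (142 CPM) and WT pigs 12 (115 CPM) and 17 (113 CPM) were high, and the other 20 libraries lay between 45.3 and 80.5 CPM. CF pig 1 also held the highest erythroid (466.1 CPM, the others at most 225), endothelium and vasa recta (1398 CPM), thin limb and medulla (725 CPM) and proximal tubule (15413 CPM) marker sums, and the part of these in its AKR1B1 and MIOX levels was not tested. CF over non-CF came to a log2 fold change of -0.05 (SE 0.170, 95% interval -0.40 to 0.30, edgeR adjusted p = 0.947), and to -0.22 without CF pig 1. CF against WT was at -0.22 (edgeR adjusted p = 0.677), -0.39 without CF pig 1 and -0.08 without WT pig 12. HET against WT was at -0.37 (edgeR adjusted p = 0.711) and -0.23 without WT pig 12.

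The urea transporters were lower in the CF and HET libraries than in WT on average, without passing the test. SLC14A1 ranged from 2.24 to 7.14 CPM in CF (median 3.18), 2.26 to 5.68 CPM in HET (median 3.09) and 2.99 to 8.47 CPM in WT (median 4.70). SLC14A2 ranged from 0.405 to 1.60 CPM in CF (median 0.878), 0.625 to 1.06 CPM in HET (median 0.725) and 0.297 to 2.60 CPM in WT (median 0.956). For both genes WT pigs 12 and 17 held the highest values of all 23 libraries, while WT pigs 18, 22 and 23 were no higher than the top CF and HET libraries. The log2 fold changes for CF against WT were -0.49 for SLC14A1 (SE 0.265, 95% interval -1.03 to 0.06, edgeR adjusted p = 0.424) and -0.58 for SLC14A2 (SE 0.349, 95% interval -1.30 to 0.14, edgeR adjusted p = 0.482). Those for HET against WT were -0.54 (edgeR adjusted p = 0.679) and -0.70 (edgeR adjusted p = 0.686). Without WT pig 12, SLC14A1 came to -0.30 for CF against WT and -0.35 for HET against WT, and SLC14A2 to -0.32 and -0.43. Without WT pig 17, SLC14A2 came to -0.26 and -0.38. For CF against non-CF, SLC14A1 was at -0.24 (edgeR adjusted p = 0.706) and SLC14A2 at -0.27 (edgeR adjusted p = 0.760). Below the non-CF median were 6 of 11 CF libraries for SLC14A1 and 3 of 11 for SLC14A2. These fold changes were -0.12 and -0.09 without WT pig 12, -0.15 and -0.06 without WT pig 17, and -0.39 and -0.41 without CF pig 3. Within the later pig numbers SLC14A1 was at -0.28 for CF and -0.0024 for HET against WT. The SLC14A2 difference from WT turned to 0.61 for CF and 0.89 for HET with only the later pig numbers, where WT has 2 libraries.

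NFAT5, the tonicity factor, ranged from 210 to 310 CPM in CF (median 252), 215 to 246 CPM in HET (median 229) and 224 to 321 CPM in WT (median 237). The HET libraries were close together and the other groups reached higher. Its log2 fold change was 0.08 for CF against non-CF (SE 0.0758, 95% interval -0.07 to 0.24, edgeR adjusted p = 0.692), the narrowest interval of the 9 genes. It was 0.05 without CF pig 3 and 0.13 without WT pig 12.

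MIOX had the lowest p of the members. It ranged from 79.0 to 551 CPM in CF (median 241), 94.4 to 275 CPM in HET (median 168) and 135 to 168 CPM in WT (median 153). CF pigs 9 (551 CPM), 1 (349 CPM), 10 (305 CPM) and 8 (285 CPM) were above every non-CF library, while CF pig 3 (79.0 CPM) was below all of them. Between CF and non-CF the log2 fold change was 0.63 (SE 0.226, 95% interval 0.16 to 1.09, 1.54-fold), with 8 of 11 CF libraries above the non-CF median, and its edgeR adjusted p was 0.199 (unadjusted 0.0105). The exact two-sided Mann-Whitney U test gave an adjusted p of 0.347 (unadjusted 0.0317). Against the WT libraries alone, CF was higher by 0.75 on the log2 scale (SE 0.286, edgeR adjusted p = 0.225). It was 0.42 within the earlier and 0.75 within the later pig numbers for CF against non-CF (edgeR adjusted p = 0.652 and 0.123), and for CF against WT 0.24 and 1.30 (edgeR adjusted p = 0.774 and 0.0745). The difference between HET and WT was 0.24 (SE 0.316, edgeR adjusted p = 0.883). It was -0.44 within the earlier and 0.82 within the later pig numbers, -0.14 with the Y-linked gene EIF1AY as a covariate, 0.08 without HET pig 19, 0.15 without HET pig 20 and 0.38 without HET pig 14. Proximal tubule markers moved with MIOX across libraries, as given further on, and their part in the difference between labels was not tested.

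**Figure D2:**
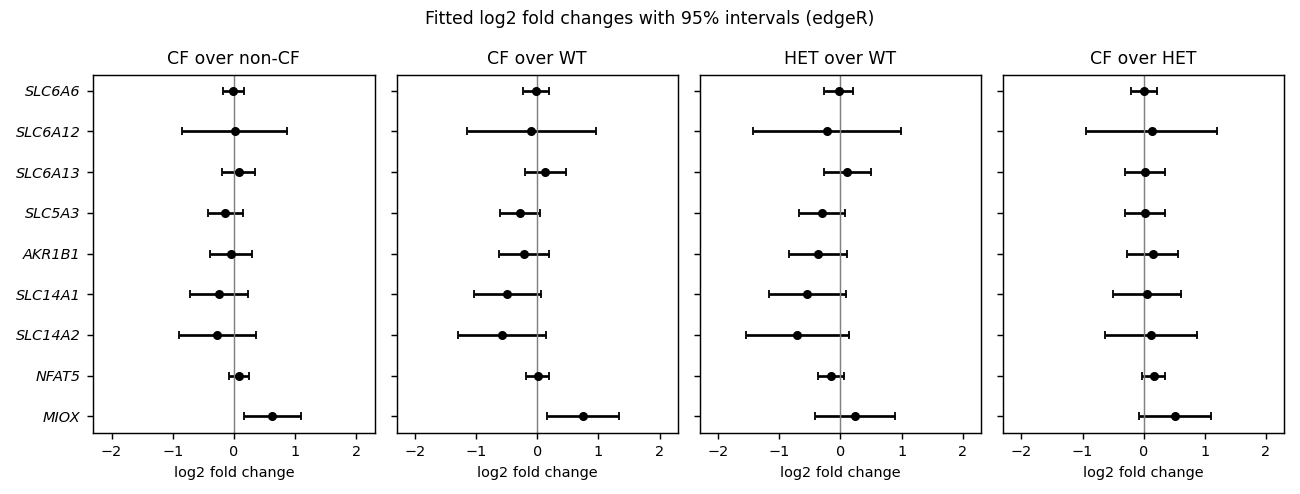
Fitted log2 fold changes (x axis, points) with 95% intervals (bars) for the 9 genes (rows) in 4 comparisons of labels, from edgeR. The intervals include 0 for every gene except MIOX in CF over non-CF and CF over WT, and are widest for SLC6A12.

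For CF against HET, 9 of 9 members had a log2 fold change above 0, from 0.0030 for SLC6A6 to 0.51 for MIOX. Without CF pig 9 the MIOX value was 0.33. Over all genes tested, 51.4% were above 0. SLC6A6 fell below 0 with median-of-ratios or upper-quartile scaling, so the count was 8 of 9 there, as it also was in DESeq2, with length offsets and with EIF1AY as a covariate. It was 7 of 9 with only the earlier pig numbers, 6 of 9 in limma-voom and with the set of pig numbers as a term, and 5 of 9 with only the later pig numbers. For HET against WT, 2 of 9 were above 0 (SLC6A13 and MIOX) and 7 below, with a median of -0.22, where 48.8% of all genes were above 0 and their median was -0.0043. The count was 5 of 9 with only the later pig numbers, 3 of 9 in limma-voom and 1 of 9 with EIF1AY as a covariate. The comparisons share libraries and are not independent of each other.

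In 8 of the 9 genes the fitted difference between the sets of pig numbers was larger than that between CF and non-CF, SLC6A13 being the exception. That fit held CF against non-CF, and HET and WT were not told apart in it. The later set was lower than the earlier one by a log2 difference of -0.49 (SE 0.101) for SLC5A3, -0.69 (SE 0.196) for SLC14A1, -0.87 (SE 0.271) for SLC14A2 and -0.36 (SE 0.159) for AKR1B1. MIOX went the other way, with 0.65 (SE 0.190), from a mean of 163 CPM to 264 CPM. By label, mean MIOX went from 188 to 331 CPM in CF and from 117 to 239 CPM in HET, but from 158 to 136 CPM in WT. For AKR1B1 the exception was HET, with 56.7 CPM in the earlier and 65.8 CPM in the later libraries. NFAT5 was lower in the later set by -0.18 (SE 0.0683), and SLC6A12, with the largest error, by -0.60 (SE 0.418). SLC6A6 differed by -0.10 (SE 0.0812) and SLC6A13 by -0.03, less than its error (SE 0.135). No test is given, since the sets were known from an earlier view of all genes in these libraries. The CF effect did not differ between the sets at edgeR's adjusted p of 0.05 for any of the 9 genes. Collecting duct principal cell markers had a median sum of 353 CPM in the earlier libraries (229 to 431 CPM) and 302 CPM in the later ones (253 to 340 CPM), and proximal tubule markers 10377 CPM (7754 to 15413 CPM) and 11226 CPM (9670 to 14096 CPM). The ranges of the sets overlapped for both lists, and their part in these differences was not tested.

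Across the 23 libraries, the pairs among SLC5A3, AKR1B1, SLC14A1 and SLC14A2 passed the adjusted threshold by Pearson's r, while the pairs of SLC6A6, SLC6A12 and NFAT5 with SLC5A3 or AKR1B1 did not pass. Correlations were taken on log2 CPM over 99 relations (36 pairs of members, and each member with 6 marker sums and with depth), each with a two-sided permutation test of 100000 draws. That test pools the sets of pig numbers, so a shift between the sets counts towards a relation. With each set centred on its own mean and libraries permuted only within sets, a test chosen after seeing the data, 5 relations passed by Pearson's r in place of 17, and 3 passed in both. All 17 kept their sign. Of the 36 pairs of members 10 passed in the pooled test and 0 in the centred one, where 13 had an unadjusted p under 0.05 and the lowest adjusted p was 0.0513. By rank 0 of the 99 passed when centred, with 22 at an unadjusted p under 0.05. The p-values given for single relations are pooled unless said otherwise. SLC5A3 and SLC14A1 had the closest relation among the members, with Pearson's r = 0.75 (permutation p = 5e-05, adjusted p = 0.00297) and Spearman's rho = 0.74 (permutation p = 7e-05, adjusted p = 0.00693). It was r = 0.66 within the earlier and 0.53 within the later pig numbers, and r = 0.65 without CF pig 3 and WT pig 17, the libraries farthest from the median of SLC5A3. Over all genes, 30 genes were closer to SLC5A3 than SLC14A1 was. The myo-inositol and the urea transporter were thus high in the same pigs, among them WT pigs 12 and 17 and CF pig 3.

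SLC14A1 and SLC14A2, the neighbours on chromosome 1, had r = 0.71 (permutation p = 0.00011, adjusted p = 0.00297) and rho = 0.58 (permutation p = 0.00388, adjusted p = 0.0346). This relation did not hold within the later pig numbers (r = 0.16, against 0.76 in the earlier ones) and was r = 0.53 without WT pigs 12 and 17. SLC5A3 and SLC14A2 behaved alike, with r = 0.69 (permutation p = 0.0002, adjusted p = 0.00396) and rho = 0.57 (permutation p = 0.00495, adjusted p = 0.0350), but 0.74 in the earlier and 0.09 in the later set, and 0.56 without CF pig 3 and WT pig 17. AKR1B1 went with SLC14A1 at r = 0.66 (permutation p = 0.00056, adjusted p = 0.00693) and rho = 0.60 (permutation p = 0.00313, adjusted p = 0.0320), at 0.63 and 0.39 within the sets and 0.68 without CF pig 1 and WT pig 12. It went with SLC5A3 at r = 0.61 (permutation p = 0.00154, adjusted p = 0.0139) and rho = 0.58 (permutation p = 0.00477, adjusted p = 0.0350), at 0.59 and 0.38 within the sets and 0.51 without CF pig 3 and WT pig 17.

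AKR1B1 and SLC14A2 had r = 0.68 (permutation p = 0.00043, adjusted p = 0.00608) and rho = 0.55 (permutation p = 0.00800, adjusted p = 0.0518), with 0.79 in the earlier set, 0.20 in the later one and 0.63 without CF pig 1 and WT pig 12. Relations among these 4 genes were closer in the earlier pig numbers, and those with SLC14A2 were weak in the later ones. Within the 6 HET libraries the relations with SLC14A2 had the opposite sign (r = -0.70 for AKR1B1, -0.50 for SLC5A3 and -0.48 for SLC14A1).

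SLC6A12 and SLC6A13, which lie next to each other on chromosome 5, had r = 0.60 (permutation p = 0.00271, adjusted p = 0.0192) and rho = 0.58 (permutation p = 0.00420, adjusted p = 0.0346). The relation was as close within the earlier (r = 0.60) and the later set (r = 0.65), and was 0.58 without WT pigs 12 and 18. Of all genes, 49 were closer to SLC6A12 than SLC6A13 was. Reads of adjacent genes on the same strand, such as those of a transcript that runs on, could be given to either, and this was not tested.

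NFAT5 was related to both urea transporters by Pearson's r (0.60 with SLC14A1, permutation p = 0.00254, adjusted p = 0.0192, and 0.55 with SLC14A2, permutation p = 0.00681, adjusted p = 0.0397) but not by rank (rho = 0.46, permutation p = 0.0298, adjusted p = 0.113, and rho = 0.39, permutation p = 0.0647, adjusted p = 0.173). Without WT pigs 12 and 17 r was 0.45 and 0.36, and within the later pig numbers it was -0.04 and 0.10, so these relations rest on few libraries. With the osmolyte genes named above as raised by NFAT5, r was 0.46 for SLC5A3, 0.32 for SLC6A12, 0.21 for AKR1B1 and -0.06 for SLC6A6, none past the adjusted threshold.

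**Figure D3:**
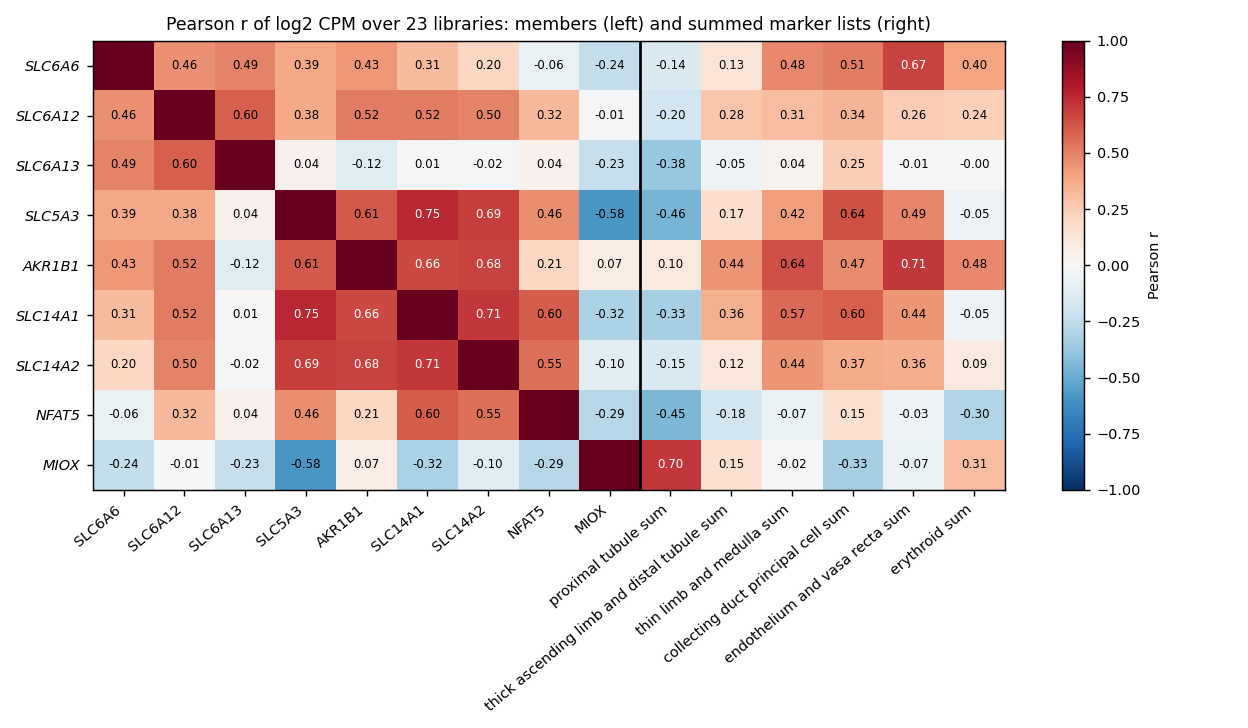
Pearson's r of log2 CPM over 23 libraries between the 9 genes (rows) and the same genes (left columns) or the summed CPM of 6 marker lists (right columns), red above 0 and blue below. SLC5A3, AKR1B1, SLC14A1 and SLC14A2 form a block at 0.61 to 0.75, and MIOX stands apart, at 0.70 with the proximal tubule sum and -0.58 with SLC5A3.

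For 5 of the 9 genes (SLC6A6, SLC5A3, AKR1B1, SLC14A1 and MIOX) the relation with some marker sum passed the adjusted threshold by Pearson's r. None did for SLC14A2, SLC6A12, SLC6A13 or NFAT5, and SLC14A1 with the endothelium and vasa recta sum stood at r = 0.44 (permutation adjusted p = 0.104). MIOX went with the proximal tubule sum at r = 0.70 (permutation p = 0.00012, adjusted p = 0.00297) and rho = 0.64 (permutation p = 0.00113, adjusted p = 0.0186), at 0.68 within the earlier and 0.71 within the later set and 0.57 without CF pigs 3 and 9. By label it was 0.85 in CF and 0.62 in HET but -0.51 in WT, where MIOX varied little. MIOX and SLC5A3, which break down and take up the same solute, were inversely related at r = -0.58 (permutation p = 0.00346, adjusted p = 0.0228) and rho = -0.54 (permutation p = 0.00908, adjusted p = 0.0518), at -0.21 within the earlier and -0.53 within the later set and -0.52 without CF pig 3 and WT pig 17. By label it was -0.75 in CF and -0.39 in HET but 0.75 in WT. With the sets centred it was -0.34 (permutation p within sets = 0.118, adjusted p = 0.324), which did not pass.

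SLC5A3 went with the collecting duct sum at r = 0.64 (permutation p = 0.00097, adjusted p = 0.0102) and rho = 0.73 (permutation p = 0.00017, adjusted p = 0.00825), at 0.54 and 0.42 within the sets and 0.69 without CF pig 3 and WT pig 17. SLC14A1 went with the same sum at r = 0.60 (permutation p = 0.00230, adjusted p = 0.0190) and rho = 0.72 (permutation p = 0.00025, adjusted p = 0.00825), at 0.49 and 0.40 within the sets and 0.56 without WT pigs 12 and 17. AKR1B1 was closest to the endothelium and vasa recta sum, at r = 0.71 (permutation p = 0.0001, adjusted p = 0.00297) and rho = 0.60 (permutation p = 0.00294, adjusted p = 0.0320), with 0.68 and 0.73 within the sets and 0.48 without CF pig 1 and WT pig 12. By label it was 0.85 in CF and 0.81 in WT but -0.40 in HET. SLC6A6 also went with that sum, at r = 0.67 (permutation p = 0.00039, adjusted p = 0.00608) and rho = 0.66 (permutation p = 0.00075, adjusted p = 0.0180), with 0.60 and 0.72 within the sets and 0.78 without CF pig 5 and HET pig 19. With the collecting duct sum SLC6A6 passed by rank (rho = 0.66, permutation p = 0.00091, adjusted p = 0.0180) but not by Pearson's r (0.51, permutation adjusted p = 0.0626). The thin limb and medulla sum went with AKR1B1 at r = 0.64 (permutation p = 0.00103, adjusted p = 0.0102) and rho = 0.62 (permutation p = 0.00199, adjusted p = 0.0281), with 0.55 and 0.84 within the sets, 0.46 without CF pig 1 and WT pig 12, and -0.30 within HET. It went with SLC14A1 at r = 0.57 (permutation p = 0.00499, adjusted p = 0.0309) and rho = 0.60 (permutation p = 0.00323, adjusted p = 0.0320), with 0.45 and 0.61 within the sets and 0.48 without WT pigs 12 and 17. How much of these relations lies in the share of each cell type in the piece of cortex was not tested. With the sets centred, the relations that passed in both tests were those of MIOX with the proximal tubule sum (r = 0.67) and of AKR1B1 (r = 0.66) and SLC6A6 (r = 0.65) with the endothelium and vasa recta sum, each at a permutation adjusted p of 0.0347. AKR1B1 (r = 0.59) and SLC14A1 (r = 0.61) with the thick ascending limb and distal tubule sum passed when centred but not when pooled.

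**Figure D4:**
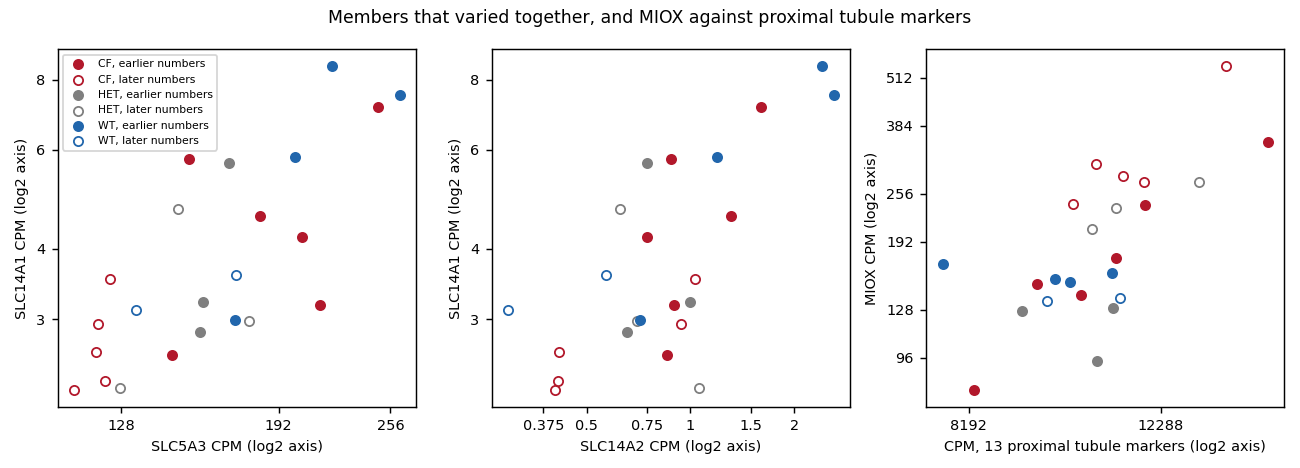
Each point is 1 library, coloured by label and filled for earlier or open for later pig numbers, on log2 axes: SLC14A1 against SLC5A3 CPM (left), SLC14A1 against SLC14A2 CPM (middle) and MIOX CPM against the summed CPM of 13 proximal tubule markers (right). The 5 later CF libraries lie at the low end of SLC5A3 (113 to 124 CPM), and CF pig 9 (551 CPM) is highest for MIOX.

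The named genes whose log2 CPM was most like each member over the 23 libraries were found among all genes, and r is given as a description. SLC14A1 was most like CLDN11 (0.88), a claudin, and SSTR2 (0.82), a somatostatin receptor. SLC5A3 was most like LURAP1L (0.85) and PCDH20 (0.81), the latter at -0.03 within the later pig numbers. AKR1B1 was most like ADAMTS4 (0.88), a matrix protease, and LAMA4 (0.85), a laminin of vessel basement membranes. MIOX was most like CRYL1 (0.86), an enzyme of the same route of sugar oxidation, and BHLHE40 (0.81), a transcriptional repressor. For the rest, SLC6A6 was most like DDB2 and ST6GALNAC2 (both 0.81), SLC6A13 like SLC38A8 (0.81) and IFN-OMEGA-3 (0.71), NFAT5 like MBD5 (0.85) and DIAPH2 (0.82), SLC14A2 like CAP2 (0.80) and LUZP2 (0.78), and SLC6A12 like COL24A1 (0.76) and ACOXL (0.74). Within the later pig numbers r was also low for ACOXL (0.17), DIAPH2 (0.40), SSTR2 (0.41) and CAP2 (0.45). No gene reached 0.8 with SLC6A12 or SLC14A2, the members with the fewest counts.

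Other genes of the same pathways were followed as 4 lists. Of 17 genes of osmolyte metabolism, 1 was called for CF against non-CF by edgeR (0.349% of all genes) and 3 had an unadjusted p under 0.05 (13.7% of all genes), with a list median of 0.00. The gene called was GPCPD1, which splits glycerophosphocholine, another osmolyte of the medulla. It ranged from 33.7 to 84.2 CPM in CF (median 58.7), 29.8 to 41.5 CPM in HET (median 33.6) and 32.3 to 54.4 CPM in WT (median 36.4), and 10 of 11 CF libraries were above the non-CF median. Its log2 fold change was 0.61 (SE 0.136, edgeR adjusted p = 0.0454), and it was 0.41 (edgeR adjusted p = 0.271) within the earlier and 0.79 (edgeR adjusted p = 0.0202) within the later pig numbers. The call was lost in limma-voom (adjusted p = 0.0638), in the exact Mann-Whitney U test (adjusted p = 0.101), with the Y-linked gene EIF1AY as a covariate (adjusted p = 0.0540), and when any 1 of 14 libraries was left out (CF pigs 5 to 11, HET pigs 14, 20 and 21, WT pigs 12, 16, 17 and 18), with the adjusted p at most 0.0942 there. For CF against WT, GPCPD1 was at 0.50 and was called neither by edgeR (adjusted p = 0.160) nor by DESeq2 (0.0608) or limma-voom (0.187). For CF against HET it was at 0.73 (edgeR adjusted p = 0.181). BHMT, which uses betaine to make methionine, was highest in HET and differed by -0.60 (SE 0.200, edgeR adjusted p = 0.159) between CF and non-CF, against -0.24 between CF and WT (edgeR adjusted p = 0.678). With only the later pig numbers BHMT was called for CF against non-CF, at -0.77 (edgeR adjusted p = 0.0341). CHKA (choline kinase) differed by 0.38 (SE 0.131, edgeR adjusted p = 0.180). For CF against WT it was at 0.52 with 11 of 11 CF libraries above the WT median (edgeR adjusted p = 0.119), and DESeq2 called it (adjusted p = 0.0348).

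The tonicity response list had 7 measured genes, of which 0 were called for CF against non-CF and 1 for CF against WT by edgeR, with 1 at an unadjusted p under 0.05 in either comparison. Over all genes 0.349% and 0.336% were called in these comparisons, and 13.7% and 14% had an unadjusted p under 0.05. The gene called was AQP1, the water channel of the proximal tubule, thin descending limb and vasa recta. It ranged from 164 to 399 CPM in CF (median 243), 140 to 250 CPM in HET (median 187) and 108 to 203 CPM in WT (median 124), and 11 of 11 CF libraries were above the WT median. Its log2 fold change was 0.93 for CF against WT (SE 0.187, edgeR adjusted p = 0.0303) and 0.68 for CF against non-CF (SE 0.160, edgeR adjusted p = 0.0534). For CF against non-CF 7 of 35 alternatives called it, which were DESeq2 (adjusted p = 0.00477), the later pig numbers (0.0145), the filter of 1 CPM (0.0439) and 4 of the 23 fits that left out 1 library. The call against WT was lost within either set of pig numbers (adjusted p = 0.128 in the earlier and 0.102 in the later) and when any 1 of 7 libraries was left out (CF pigs 7 and 8, WT pigs 12, 16, 17, 18 and 22), with the adjusted p at most 0.0927 there. AQP2, the vasopressin-regulated channel of the collecting duct, differed by -0.24 between CF and non-CF (SE 0.228, edgeR adjusted p = 0.712), -0.39 without CF pig 1 and -0.10 without WT pig 12. With only the later pig numbers AQP2 was called, at -0.79 (edgeR adjusted p = 0.0291), and it was 0.07 with only the earlier ones (edgeR adjusted p = 0.962). HSPA4L differed by -0.07 (edgeR adjusted p = 0.785), with -0.11 to -0.03 when 1 library was left out.

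Of 10 tested genes of urea and arginine metabolism, 0 were called for CF against non-CF by edgeR (0.349% of all genes) and 1 had an unadjusted p under 0.05 (13.7% of all genes). That was AQP7, a channel for glycerol, urea and water in the proximal tubule, which ranged from 11.0 to 27.6 CPM in CF (median 15.2), 19.99 to 31.2 CPM in HET (median 26.4) and 20.1 to 30.6 CPM in WT (median 25.1). Its log2 fold change was -0.59 (SE 0.138) with an edgeR adjusted p of 0.0527, just over the threshold. Of 35 alternatives 11 were under the threshold, which were DESeq2 (0.00555), limma-voom (0.0461), the later pig numbers (0.0253), upper-quartile scaling (0.0497), the filter of 1 CPM (0.0459), the set as a term (0.0469) and 5 of the 23 fits that left out 1 library. Those over it included the exact Mann-Whitney U test (0.133), the earlier pig numbers (0.508), with length offsets (0.0644) and with EIF1AY as a covariate (0.0602). ARG1 had a log2 fold change of -0.39 (edgeR adjusted p = 0.382), at -0.02 within the earlier and -0.85 within the later pig numbers. The ranges of HET (1.19 to 2.06 CPM) and CF (0.4998 to 1.53 CPM) overlapped for ARG1, which was at 0.11 for CF against WT (edgeR adjusted p = 0.855), 0.87 for HET against WT (edgeR adjusted p = 0.288) and -0.76 for CF against HET (edgeR adjusted p = 0.193). AGMAT was at 0.22 for CF against non-CF (edgeR adjusted p = 0.522) and at 0.14 without CF pig 9. CPS1 and AQP9 did not pass the filter in that fit. Of the 5 LRRC8 subunits of the volume-regulated anion channel, through which cells release osmolytes, 0 were called and 1 (LRRC8E, -0.15, edgeR adjusted p = 0.346) had an unadjusted p under 0.05, while LRRC8A (0.14, edgeR adjusted p = 0.542, 0.08 without CF pig 1) and LRRC8B (-0.10, edgeR adjusted p = 0.620) came next. DESeq2 also called ARG2 (0.06 in edgeR), which is named after its value was seen, and neither DESeq2 nor limma-voom called an LRRC8 gene. For HET against WT and CF against HET, edgeR and limma-voom called 0 of the 40 genes tested in the 4 lists, with 4 and 5 at an unadjusted p under 0.05 in edgeR (8% and 9.83% of all genes). DESeq2 called 0 and 3 (BHMT, GPCPD1 and ARG1), where it called 0.149% and 0.261% of all genes. With only the later pig numbers edgeR called 6 of 40 for CF against HET, where it called 2.42% of all genes. GPCPD1 (1.05) and AQP1 (0.87) were higher in CF, and AQP7 (-0.95), BHMT (-0.91), ARG1 (-1.16) and AQP3, a water and glycerol channel, were lower. For CF against non-CF it called 6 of 39 in that set, with AQP2 in place of ARG1, beside 2.26% of all genes, and these comparisons share the CF and HET libraries. With only the earlier pig numbers it called 0 in both, with 6 at an unadjusted p under 0.05 in each, and CPS1 alone, higher in HET, for HET against WT (1 of 41, 0.0786% of all genes). It called 0 of 41 and 0 of 40 for CF against WT with only the earlier and only the later pig numbers (0.0324% and 0.263% of all genes, 5 and 14 list genes at an unadjusted p under 0.05), and 0 of 40 for HET against WT with only the later ones (0.0785% of all genes, 3 at an unadjusted p under 0.05).

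**Figure D5:**
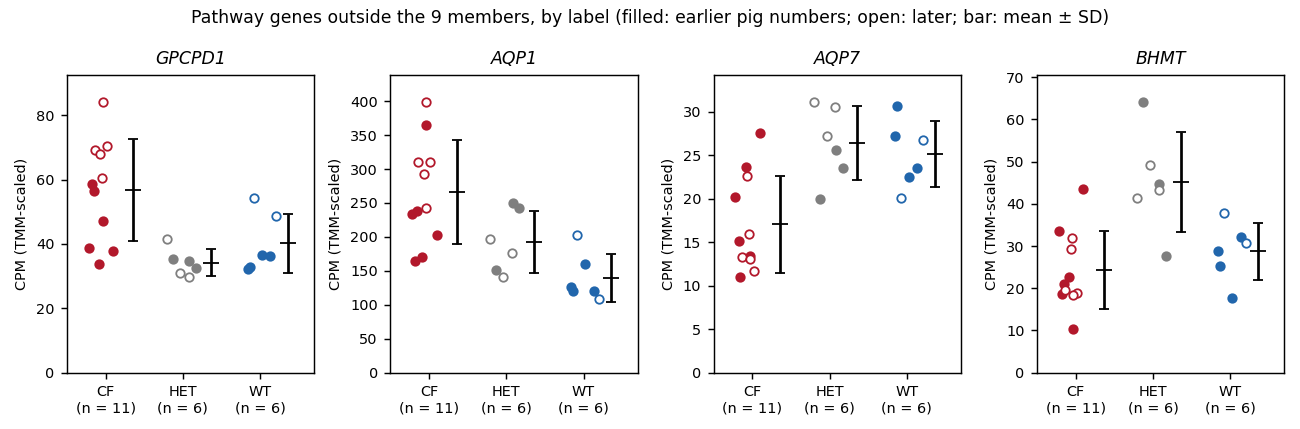
CPM of GPCPD1, AQP1, AQP7 and BHMT (y axes, linear) in the 23 libraries by label (x axis), with filled points for earlier and open points for later pig numbers and bars for the mean ± SD. GPCPD1 and AQP1 reach 84.2 and 399 CPM in the CF group, and AQP7 is lower in CF than in both other groups on average.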

How the data were processed

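Kidney cortex RNA of 23 pigs (TruSeq Stranded Total RNA with RiboZero) was pseudoaligned by the authors to Sscrofa11.1 transcripts with kallisto 0.48.0. The estimated counts the authors deposited are per transcript and not normalized, and the deposited TPM values are the same estimates divided by effective length and scaled per library. Per gene symbol, the values of 77689 transcripts were added up (26687 genes, 25476 with a count) and rounded to whole numbers, as 64.0% of the deposited values had a fractional part. No pair of libraries held identical values.

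edgeR 4.0.16 on R 4.3.3 (TMM, filterByExpr, quasi-likelihood test, Benjamini-Hochberg adjustment, limit 0.05) compared 11 CF with 12 non-CF libraries, and a fit of 3 labels gave the pairwise comparisons. Log2 CPM used a prior count of 2. The authors' Mann-Whitney U test was repeated as an exact test (genes with 5 counts or more in 47% of libraries or more). Alternatives were DESeq2 1.42.0, limma-voom (limma 3.58.1), other scalings and filters, length offsets, pig number sets, EIF1AY as a covariate and each library left out. The main edgeR fits and the DESeq2 and limma-voom fits of all 23 libraries were tested on simulated data. The other alternatives were not. Floors of 3 counts cover counting error only.

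The members and lists were chosen with earlier results of these data known, and so were the pig number sets. Genes named are the members, CFTR, the 2 named genes most like each member, and in each pathway list the 3 with the smallest p for CF against non-CF plus any called. MRPS6, which overlaps SLC5A3, and CALB1, SLC12A1, SLC12A3, UMOD, PTGER3, CPS1, AQP9, AQP3 and ARG2 were added after their values were seen. Of the tonicity list, HSPA1A and HSPA1B were not used here. Genome and annotation were NCBI RefSeq's for Sscrofa11.1, read with pysam 0.24.0. Other tools were Python 3.11.15, numpy 2.4.6, scipy 1.17.1, pandas 2.3.3 and matplotlib 3.10.9.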

Additional observations from a re-analysis of the deposited data

Results flagged for a closer look

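Among 22 genes, which included the members and the named pathway genes, 44 groups of 6 libraries were searched for a single library far from the others. By Dixon's limit 2 stood apart, where about 1 in 20 would by chance. LRRC8A was at 63.4 CPM in HET pig 19, below the 77.8 to 81.9 CPM of the other HET libraries. AQP2 was at 113 CPM in WT pig 12, above the 42.7 to 66.5 CPM of the other WT libraries.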

How the results depend on the processing

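The count of members called stayed at 0 of 9 in all 4 comparisons under every alternative run, the smallest adjusted p being 0.0745. Of 1233 member values under alternatives, 1120 kept their direction and 113 changed sign, none of them past the threshold. The paper compared littermates in pairs for its metabolite measurements. No such pairing was possible here, because the labels do not give the litter of a pig. Any littermates among the libraries were treated as independent in every test, and the effect of this on the p-values was not tested. Counts over all genes for CF against non-CF moved from 73 to 488 with DESeq2, 471 and 0 with only the later or earlier pig numbers, 150 with a filter of 1 CPM in 6 libraries, 136 with the set as a term, 44 with EIF1AY, 46 with limma-voom and 17 to 203 with a library left out. For CF against WT they moved from 72 to 573 with DESeq2, 199 with the set as a term, 140 with that filter, 139 with upper-quartile scaling, 7 with the earlier numbers and 20 to 187 with a library left out. For CF against HET they moved from 0 to 525 with the later numbers, 56 with DESeq2 and at most 5 otherwise, and for HET against WT from 1 to 32 with DESeq2, 17 within either set and at most 3 otherwise. SLC6A12 and SLC14A2 had the fewest counts of the members, and the part of depth in their spread was not tested. WT has 2 libraries in the later set. The causes of the sign changes below were not tested.

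With only the later pig numbers, CF against non-CF turned to 0.015 for SLC6A6 and 0.0098 for SLC14A2. CF against WT turned to 1.25 for SLC6A12, 0.078 for AKR1B1 and 0.61 for SLC14A2. HET against WT turned to 1.17 for SLC6A12, -0.047 for SLC6A13, 0.28 for AKR1B1, 0.89 for SLC14A2 and 0.0063 for NFAT5, and CF against HET to -0.33 for SLC5A3, -0.20 for AKR1B1, -0.27 for SLC14A1 and -0.28 for SLC14A2. With only the earlier numbers, CF against non-CF turned to -0.17 for SLC6A12, -0.057 for SLC6A13, 0.0042 for SLC5A3, 0.0019 for AKR1B1, 0.082 for HSPA4L and 0.066 for AQP2. SLC6A6 turned to 0.014 for CF against WT, 0.086 for HET against WT and -0.071 for CF against HET. SLC6A13 turned to -0.21 for CF against HET and MIOX to -0.44 for HET against WT.

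For SLC6A6 in CF against HET the value was -0.00057 with median-of-ratios size factors, -0.00057 in DESeq2, -0.0048 with upper-quartile scaling, -0.0044 in limma-voom, -0.0019 with length offsets and -0.0077 with the set as a term. Upper-quartile scaling turned SLC6A12 in CF against non-CF to -0.011 and NFAT5 in CF against WT to -0.016, and length offsets turned the latter to -0.027. limma-voom turned SLC6A12 to 0.36 for CF against WT and 0.33 for HET against WT, and in CF against HET SLC6A13 to -0.0059 and SLC5A3 to -0.021. The set as a term turned SLC6A12 in CF against WT to 0.065, and in CF against HET SLC5A3 to -0.051 and SLC14A1 to -0.033. EIF1AY turned SLC6A12 in CF against WT to 0.020, SLC6A13 in CF against HET to -0.021 and MIOX in HET against WT to -0.14.

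Leaving out 1 library changed the sign of some small values. For CF against non-CF the range was -0.051 to 0.026 for SLC6A6, -0.33 to 0.35 for SLC6A12 and -0.22 to 0.039 for AKR1B1. For CF against WT it was -0.061 to 0.016 for SLC6A6, -0.42 to 0.66 for SLC6A12 and -0.026 to 0.088 for NFAT5, and for HET against WT -0.071 to 0.042 for SLC6A6 and -0.57 to 0.54 for SLC6A12. For CF against HET it was -0.067 to 0.048 for SLC6A6, -0.20 to 0.47 for SLC6A12, -0.050 to 0.082 for SLC6A13, -0.060 to 0.058 for SLC5A3, -0.022 to 0.19 for AKR1B1, -0.085 to 0.22 for SLC14A1 and -0.0073 to 0.21 for SLC14A2.

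Centring each set of pig numbers and permuting within sets, chosen after seeing the data, left 3 of the 17 relations past the adjusted threshold by Pearson's r, and all 17 kept their sign.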
